A study of Mus musculus with 6 samples.

Results

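The AP-1 and immediate early stress genes were examined in whole kidneys of mice that lost Vhl in part of their tubule cells. The group holds 43 genes taken from a list of gene names, with no threshold on their values, and all 43 were found among the 25206 Entrez Gene rows of the arrays, of which 23185 carried a gene symbol. Whole-kidney RNA came from 3 wild-type and 3 Vhl knockout male C57BL/6 mice aged 3 months, with 1 Affymetrix Mouse Gene 2.0 ST array per sample. The wild-type mice had a floxed Vhl allele, with labels that name no Cre, and the knockout mice carried the same floxed allele with the transgene Hoxb7-Cre-GFP. The Hoxb7 promoter is active in the collecting duct lineage and not in all tubule cells, so the extracts also held tubule cells and many other cells with intact Vhl. The study names the wild-type mice of its cell cultures as carriers of Hoxb7-Cre-GFP, and whether the wild-type mice of the arrays carried it is not stated. If they did not, the effects of the transgene and of the loss of Vhl cannot be told apart. No source states outright that each array was a separate animal, so the p-values measure the spread between these samples.

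Immediate early genes are transcribed within minutes of a stimulus, without new protein synthesis, when kinases of the MAPK pathways activate transcription factors that are already present in the cell. Many encode transcription factors. FOS and JUN proteins pair through leucine zippers to form AP-1, which binds the TRE site, and the JNK kinase phosphorylates JUN. Others close the response again, such as the DUSP phosphatases that inactivate MAPK and the ZFP36 proteins that mark mRNAs for decay. In the kidney this program is known from ischemia and other tubule injury, and several of its genes also respond to the handling of tissue.

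Of the 43 genes, 9 rose in the Vhl knockout kidneys, none fell and 34 did not pass the test. The genes that rose were Ier3, Runx1, Nr4a1, Klf6, Jun, Fosl2, Myc, Klf4 and Btg2. These are 20.9% of the group, whereas of all rows 2.24% were higher, 0.524% lower and 2.77% either (limma on the log2 signal, Benjamini-Hochberg adjustment over all rows, adjusted p under 0.05). The median log2 difference, knockout minus wild-type, was 0.25 over the group and -0.03 over all rows, and 37 of the 43 genes had a difference above 0, against 42.7% of all rows. At an unadjusted p under 0.05, 20 genes were higher and 1 was lower, where 8.67% and 8.38% of all rows were. All 3 knockout arrays lay above all 3 wild-type arrays for 20 genes and below them for 2, Batf and Gadd45a. Among all rows 11.2% were separated upward and 12.7% downward. The group was chosen with earlier results of these data known, and no test was made of the list as a whole.

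**Figure D1:**
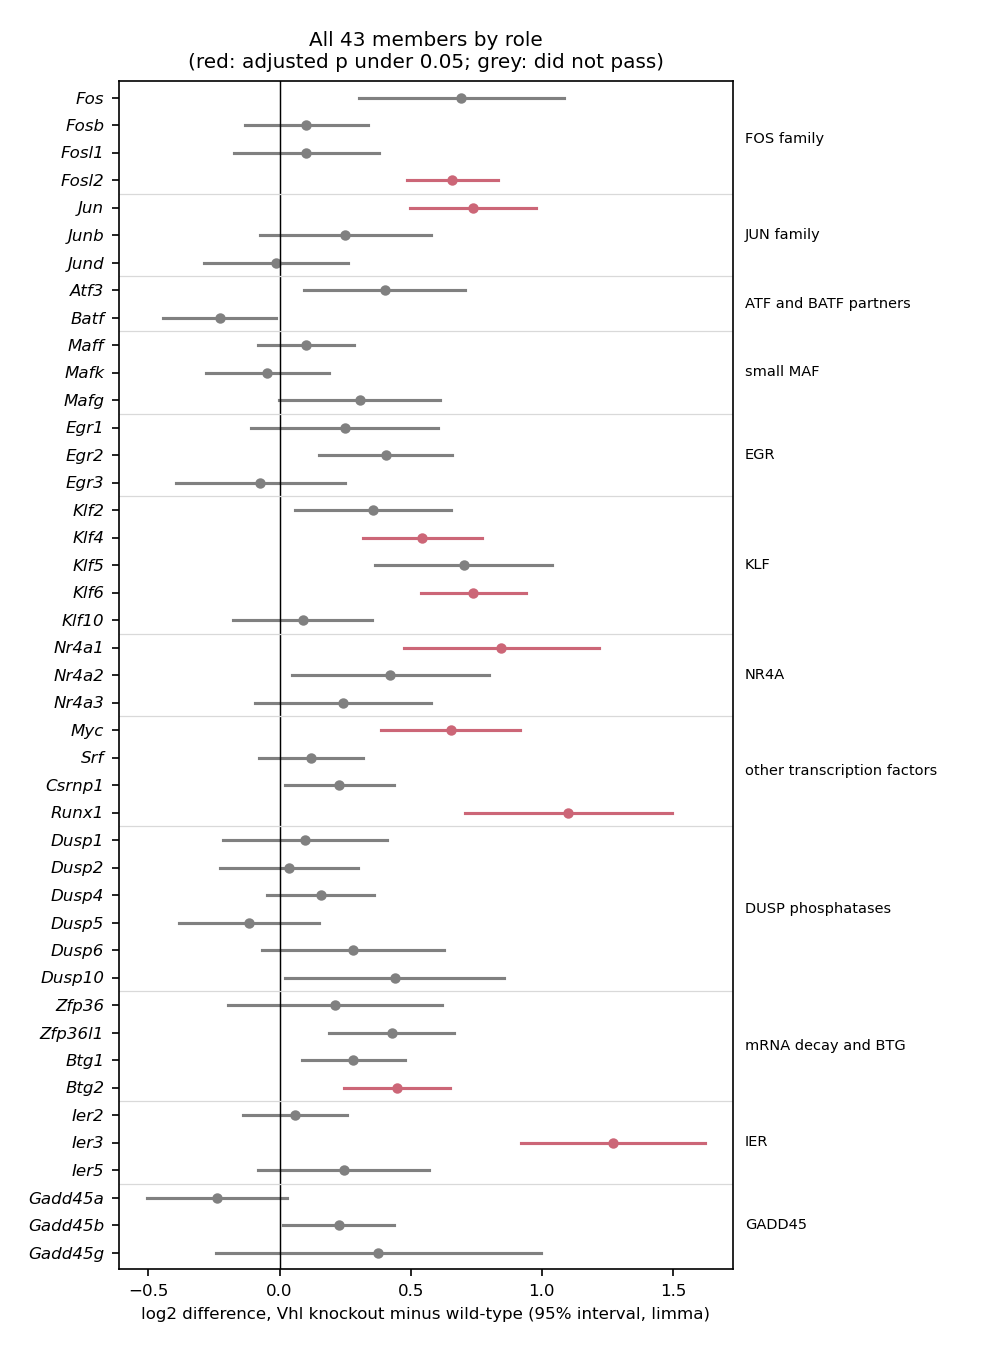
The log2 difference, Vhl knockout minus wild-type, is plotted for each of the 43 genes with its 95% interval from limma (3 arrays per genotype), ordered by role. The 9 genes past the threshold are red and range from 0.45 for Btg2 to 1.27 for Ier3, and the lowest value among the other genes is -0.24 for Gadd45a.

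**Figure D2:**
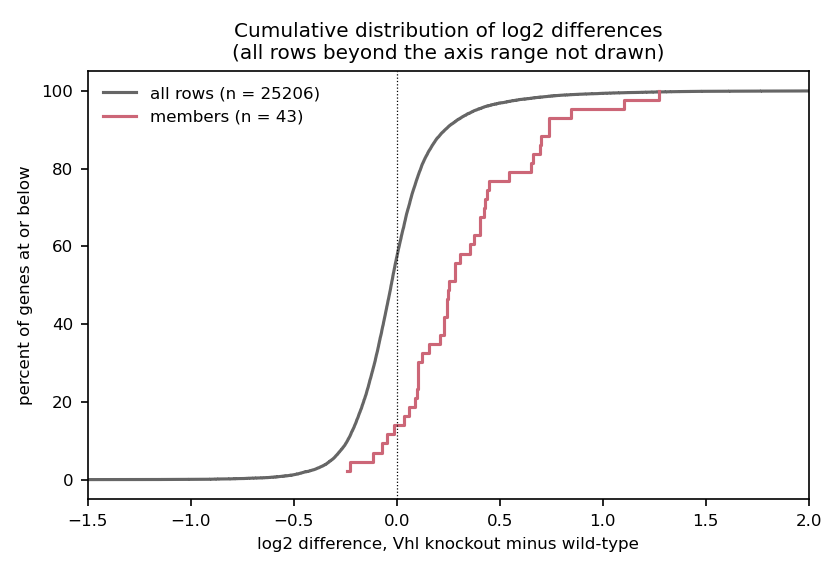
The percent of genes at or below each log2 difference is drawn for all 25206 rows and for the 43 genes. The curve of the group lies to the right of that of all rows, with a median of 0.25 against -0.03.

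The arrays were alike in their overall signal, with medians between 5.02 and 5.05 on the log2 scale. Vhl, the targeted gene, had a log2 difference of 0.03 (adjusted p = 0.860 from limma), but no source used here says which exons this row reads, and so it is no check of the labels. Markers of the proximal tubule averaged 11.1 to 11.3 and those of the loop of Henle and distal tubule 10.9 to 11.1 on every array. Of 5 collecting duct markers 2 fell, the water channels Aqp3 with -0.70 (adjusted p = 0.00684) and Aqp4 with -1.45 (adjusted p = 0.0143), and the list averaged 8.18 to 8.36 on wild-type and 7.81 to 7.89 on knockout arrays. Markers of some other cell types also differed between the genotypes. Of 12 macrophage markers 10 rose, with a mean log2 signal of 5.75 to 5.96 on wild-type and 6.96 to 7.03 on knockout arrays, and of 7 fibroblast markers 7 rose, from 6.49 to 6.70 up to 7.62 to 7.78. Of 5 smooth muscle markers 2 rose, with a mean of 5.83 to 5.95 on wild-type and 6.43 to 6.62 on knockout arrays. Tubule injury markers rose in 5 of 6 cases, with a mean of 5.33 to 5.36 on wild-type arrays and 7.04, 7.79 and 7.32 on knockout replicates 1, 2 and 3. Adipocyte markers did not pass in any of 7 cases (3 higher at an unadjusted p under 0.05 from limma), but stood at 7.11 and 6.39 on knockout replicates 1 and 3, while knockout replicate 2, at 4.94, fell in the wild-type range of 4.66 to 5.16. In such extracts a change in the number of cells and a change in the RNA of each cell cannot be told apart, and the part of these cells in the results that follow was not tested.

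Within the FOS family, which needs a JUN partner to bind DNA, Fosl2 rose. Its log2 signal was 6.34, 6.31 and 6.27 on wild-type arrays and 6.91, 7.05 and 6.94 on knockout arrays. The groups were far apart, with the lowest knockout array 0.57 above the highest wild-type array. Wild-type and knockout kidneys averaged 6.31 ± 0.031 and 6.97 ± 0.072 (SD, n = 3 each), a difference of 0.66 on the log2 scale (standard error 0.073, adjusted p = 0.00685), which is 1.58-fold (95% interval 1.40 to 1.78). Fosl2 passed with any 1 array left out. Fos itself, the founding member, read 3.35, 4.01 and 3.76 on wild-type and 4.45, 4.50 and 4.25 on knockout arrays. Every knockout array lay above the wild-type arrays, but the wild-type arrays were spread over a range almost as wide as the difference of 0.69 (standard error 0.166, adjusted p = 0.0840). Fosb and Fosl1, the other 2 FOS proteins, had differences of 0.10 (95% interval -0.13 to 0.34, adjusted p = 0.658) and 0.10 (-0.17 to 0.38, adjusted p = 0.710), with overlapping groups. Fos, Fosb and Fosl1 each were dimmer than the array median on all 6 arrays. The same held for Batf, Egr3, Nr4a2, Nr4a3, Dusp10 and Ier2, given below, and for Timp1 among the related genes.

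Among the JUN proteins only Jun passed the test. Jun, the target of JNK that can also pair with itself, read 6.96, 7.197 and 7.08 on wild-type arrays and 7.68, 7.96 and 7.82 on knockout arrays. The difference was 0.74 (standard error 0.102, adjusted p = 0.0143), which is 1.67-fold (95% interval 1.41 to 1.97), and the groups were 0.48 apart. Without wild-type replicate 1, wild-type replicate 3 or knockout replicate 3 its adjusted p was 0.0605, 0.0579 and 0.0528. Junb, a JUN protein with weaker activity, read 6.16, 6.04 and 5.95 on wild-type and 6.27, 6.58 and 6.05 on knockout arrays. Knockout replicate 3 lay below wild-type replicate 1, and the difference was 0.25 (standard error 0.139, adjusted p = 0.413). Jund, which cells make without stimulation, read 8.14, 8.14 and 8.32 against 8.15, 8.40 and 7.997, a difference of -0.01 whose interval ran from -0.29 to 0.26 (adjusted p = 0.964). The differences between the family members were not tested against each other.

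Of the 5 further leucine zipper factors none passed in limma, and at an unadjusted p under 0.05 Atf3 was higher and Batf lower. Atf3, which stress induces and which pairs with JUN proteins, read 5.19, 4.80 and 5.17 on wild-type and 5.37, 5.37 and 5.63 on knockout arrays. The groups did not overlap, with a difference of 0.40 (standard error 0.131, adjusted p = 0.185). Batf, an AP-1 factor of lymphocytes and dendritic cells, was 1 of the 2 genes with all knockout arrays below the wild-type arrays, at 4.53, 4.54 and 4.72 against 4.27, 4.47 and 4.36. Its difference was -0.23 (standard error 0.091, adjusted p = 0.264), and none of 7 T and NK cell markers passed (1 higher at an unadjusted p under 0.05 from limma). The small MAF proteins, which lack an activation domain, had differences of 0.31 for Mafg, 0.10 for Maff and -0.05 for Mafk, with adjusted p from 0.293 to 0.857.

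The largest differences of the group lay in 2 genes outside AP-1 itself. Ier3, an early response gene that shapes cell survival under stress, read 7.21, 7.31 and 7.65 on wild-type arrays and 8.87, 8.65 and 8.45 on knockout arrays. No other member had a gap as wide, with 0.80 between the groups. It averaged 7.39 ± 0.23 in wild-type and 8.66 ± 0.21 in knockout kidneys (SD, n = 3 each), a difference of 1.27 (standard error 0.149, adjusted p = 0.00820), which is 2.41-fold (95% interval 1.89 to 3.08). Ier3 passed with any 1 array left out. Runx1, a transcription factor of blood cell formation, read 4.68, 5.17 and 4.56 on wild-type and 5.83, 6.09 and 5.79 on knockout arrays. The difference was 1.10 (standard error 0.168, adjusted p = 0.0193), which is 2.15-fold (95% interval 1.63 to 2.82). Runx1 passed without wild-type replicate 2 (adjusted p = 0.0137), the highest of its wild-type arrays, and not without any other array (adjusted p from 0.0544 to 0.0823). The other IER genes, Ier2 and Ier5, stood at differences of 0.06 (adjusted p = 0.775) and 0.24 (adjusted p = 0.425). Ier2 read 4.34, 4.39 and 4.49 on wild-type and 4.57, 4.47 and 4.36 on knockout arrays, so the groups covered the same range.

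Klf6 and Klf4 rose among the 5 Krüppel-like zinc finger factors. Klf6, which tissue injury induces, read 7.201, 7.07 and 7.31 on wild-type arrays and 7.93, 7.89 and 7.98 on knockout arrays. The knockout arrays were close together, within 0.043 (SD), and the difference was 0.74 (standard error 0.085, adjusted p = 0.00773), which is 1.67-fold (95% interval 1.45 to 1.92). Klf6 passed with any 1 array left out. Klf4, a factor of epithelial differentiation and of endothelium, read 5.53, 5.47 and 5.36 against 6.01, 6.13 and 5.85, a difference of 0.54 (standard error 0.096, adjusted p = 0.0329), which is 1.46-fold (95% interval 1.25 to 1.71). It passed without knockout replicate 3 (adjusted p = 0.0448) and not without any other array (adjusted p from 0.0850 to 0.108). Klf5, a factor of epithelial proliferation, lay just outside the threshold at 5.02, 5.29 and 5.41 on wild-type and 6.20, 5.79 and 5.83 on knockout arrays. Its difference was 0.70 (standard error 0.144, adjusted p = 0.0537), and it passed with trend and robust eBayes (adjusted p = 0.0258). Klf2, a factor of endothelium under flow, had a difference of 0.36 (adjusted p = 0.216) and Klf10, induced by TGF-beta, 0.09 (adjusted p = 0.745). Endothelial markers averaged 7.93 to 7.97 on wild-type arrays and 8.37, 8.11 and 8.22 on knockout replicates 1, 2 and 3, and 1 of 7 rose.

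Nr4a1 rose among the 3 orphan nuclear receptors of the NR4A family, whose activity follows their amount since no ligand is needed. Wild-type arrays gave 5.26, 5.45 and 5.27 and knockout arrays 5.81, 6.42 and 6.29. Knockout replicate 1 was well below the other knockout arrays but still 0.36 above the highest wild-type array. The difference was 0.85 (standard error 0.158, adjusted p = 0.0401), which is 1.80-fold (95% interval 1.39 to 2.32). Nr4a1 passed without knockout replicate 1 (adjusted p = 0.0134, difference 1.03) and not without any other array (adjusted p from 0.0905 to 0.138), nor after quantile normalization (adjusted p = 0.0556). Nr4a2 and Nr4a3 had differences of 0.42 (adjusted p = 0.242) and 0.24 (adjusted p = 0.440), and their groups overlapped.

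Myc, the growth factor-induced driver of ribosome production and cell division, rose as well. It read 5.31, 5.44 and 5.23 on wild-type and 6.16, 5.78 and 5.99 on knockout arrays, a difference of 0.65 (standard error 0.113, adjusted p = 0.0305), which is 1.57-fold (95% interval 1.31 to 1.89). Unlike the NR4A genes, its lowest knockout array was replicate 2, and Myc passed without it (adjusted p = 0.0323) and not without any other array (adjusted p from 0.0659 to 0.111). Srf, which binds the CArG box of many early genes and recruits MAPK targets there, had a difference of 0.12 (interval -0.08 to 0.32, adjusted p = 0.523). Csrnp1, a nuclear protein induced by axin, had 0.23 (adjusted p = 0.249), with the groups 0.078 apart.

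The EGR zinc finger factors, which serum and injury induce through Srf, did not pass in limma (1 of 3 higher at an unadjusted p under 0.05). Egr1 read 4.92, 5.24 and 5.06 on wild-type and 5.14, 5.64 and 5.18 on knockout arrays. Knockout replicate 2 stood above the rest, while both other knockout arrays fell within the wild-type range, and the difference was 0.25 (standard error 0.152, adjusted p = 0.459). Egr2 had a difference of 0.40 with groups that did not overlap (adjusted p = 0.114), and Egr3 -0.07 (adjusted p = 0.835).

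The genes that end the early response showed few differences past the threshold. Btg2, an antiproliferative p53 target that promotes removal of poly(A) tails, read 5.75, 5.84 and 5.73 on wild-type and 6.20, 6.35 and 6.12 on knockout arrays. The difference was 0.45 (standard error 0.086, adjusted p = 0.0424), which is 1.36-fold (95% interval 1.19 to 1.57). It was the smallest of the 9 that passed and the least firm, since Btg2 lost the call with any 1 array left out (adjusted p from 0.0702 to 0.141) and after quantile normalization (adjusted p = 0.0706). Its relative Btg1 had 0.28 (standard error 0.084, adjusted p = 0.15) with groups 0.15 apart. Zfp36l1 read 9.40, 9.46 and 9.18 against 9.90, 9.68 and 9.75. Like its relative Zfp36 it binds AU-rich elements and brings the deadenylase to the mRNA. Its difference of 0.43 (standard error 0.102, adjusted p = 0.0814) passed with trend and robust eBayes (adjusted p = 0.0238). Zfp36 had 0.21 (adjusted p = 0.593), with 7.75 on knockout replicate 2 and 7.24 and 7.07 on the others, both inside or at the edge of the wild-type range of 7.01 to 7.24.

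None of the 6 dual-specificity phosphatases passed in limma, and at an unadjusted p under 0.05 1 was higher. Dusp1, which inactivates JNK and p38 in the nucleus, read 8.60, 8.63 and 8.45 on wild-type and 8.49, 8.95 and 8.53 on knockout arrays. Apart from knockout replicate 2 the groups shared 1 range, and the difference was 0.10 (interval -0.22 to 0.41, adjusted p = 0.762), or -0.05 without that array. Dusp10, which also acts on JNK and p38, had the largest difference of the 6 with 0.44 (adjusted p = 0.271), and the ERK phosphatase Dusp5 the lowest with -0.12 (adjusted p = 0.661). Dusp6, the cytoplasmic ERK phosphatase, stood at 0.28 (adjusted p = 0.394), with 8.40 on knockout replicate 1 and 7.95 on both others. Dusp4 and the immune cell phosphatase Dusp2 had 0.16 and 0.04.

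The 3 GADD45 proteins, which bind and activate a MAPK kinase kinase upstream of JNK and p38, did not pass either (1 higher at an unadjusted p under 0.05 from limma). Gadd45a had all knockout arrays below the wild-type arrays, at 7.41, 7.41 and 7.34 against 7.86, 7.45 and 7.57, a difference of -0.24 (standard error 0.114, adjusted p = 0.341) with a gap of 0.034. Gadd45b had 0.23 (adjusted p = 0.264). Gadd45g rested on 1 array, with 7.68 on knockout replicate 2 against 6.54 and 6.80 on the others and 6.59 to 6.69 on the wild-type arrays. Its difference of 0.38 (adjusted p = 0.521) was 0.04 without that array.

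**Figure D3:**
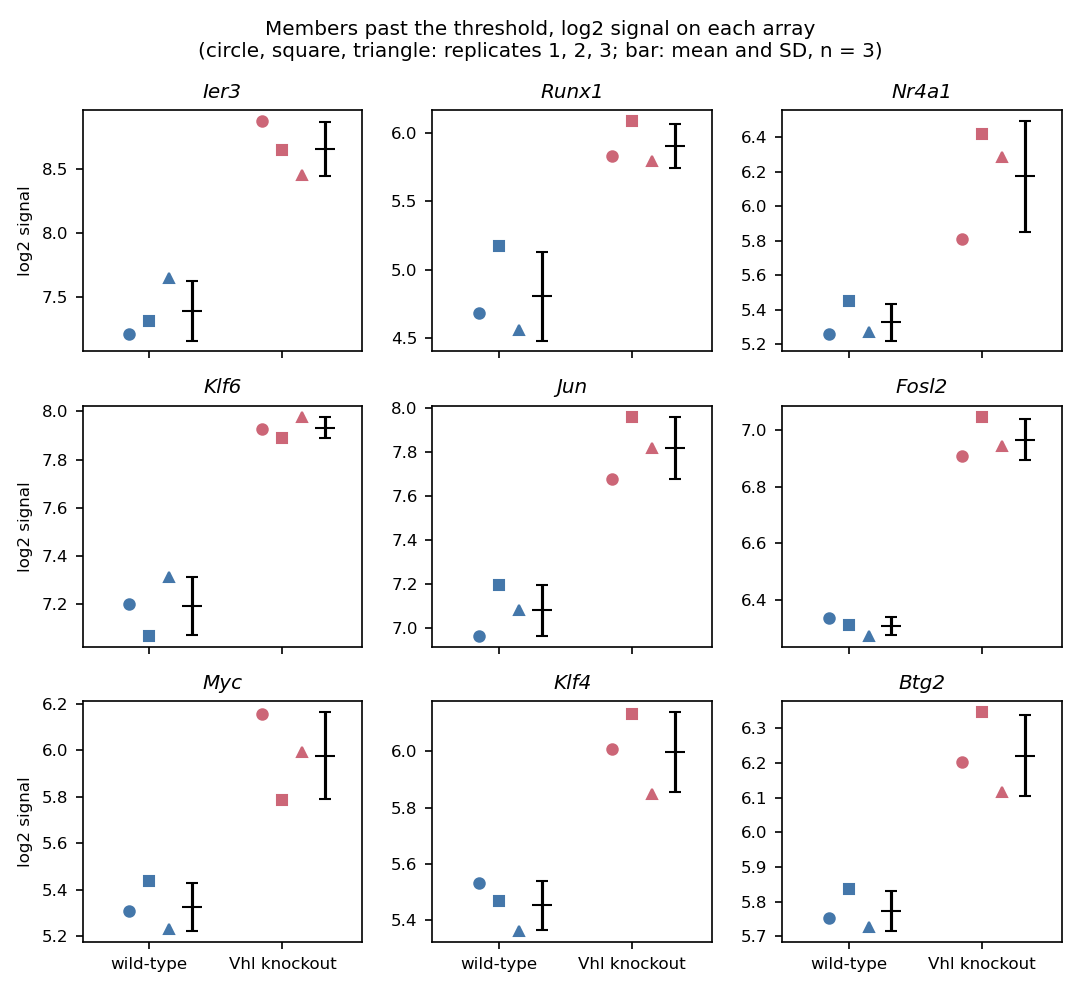
Each panel shows the log2 signal of 1 of the 9 genes past the threshold on the 3 wild-type (blue) and 3 Vhl knockout (red) arrays, with circle, square and triangle for replicates 1, 2 and 3 and a bar for the mean and SD. In every panel the knockout arrays lie above the wild-type arrays, by 0.28 for Btg2 up to 0.80 for Ier3.

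The knockout arrays were not alike in this group. Knockout replicate 2 gave the highest of the 3 knockout signals for 24 of the 43 genes (55.8%), replicate 1 for 14 and replicate 3 for 5, while replicate 2 was the highest for 32.6% of all rows. On average the group lay 0.30, 0.42 and 0.25 above the wild-type mean on knockout replicates 1, 2 and 3. All JUN, EGR and NR4A genes were highest on replicate 2, where the NR4A genes lay 0.79 above the wild-type mean against 0.34 and 0.38 on replicates 1 and 3. For the EGR genes these values were 0.40 on replicate 2 and 0.06 and 0.12 on the others. Wild-type replicate 2 was likewise the highest wild-type array, with group means of 5.75, 5.86 and 5.79 on wild-type replicates 1, 2 and 3. On these arrays the NR4A genes averaged 4.17, 4.34 and 4.24, the EGR genes 4.805, 4.89 and 4.71 and the JUN genes 7.09, 7.12 and 7.12. This likeness held for replicate 2 and not for the order of the other arrays, and its cause was not tested. Knockout replicate 1 in turn was highest for Ier3, Myc, Klf5, Zfp36l1, Dusp6, Mafg, Gadd45b, Dusp4, Srf, Klf10, Ier2, Dusp2, Mafk and Gadd45a. Knockout replicate 2 also had the lowest mean of the adipocyte and the highest mean of the tubule injury markers in its group. Of the injury markers, Lcn2 and Cdkn1a were instead highest on knockout replicate 1, at 9.78 and 8.05 against 9.63 and 8.03 on replicate 2. The part of either list was not tested. The spread within genotypes was somewhat wider in this group than elsewhere, with a median residual SD of 0.155 against 0.126 over all rows.

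**Figure D4:**
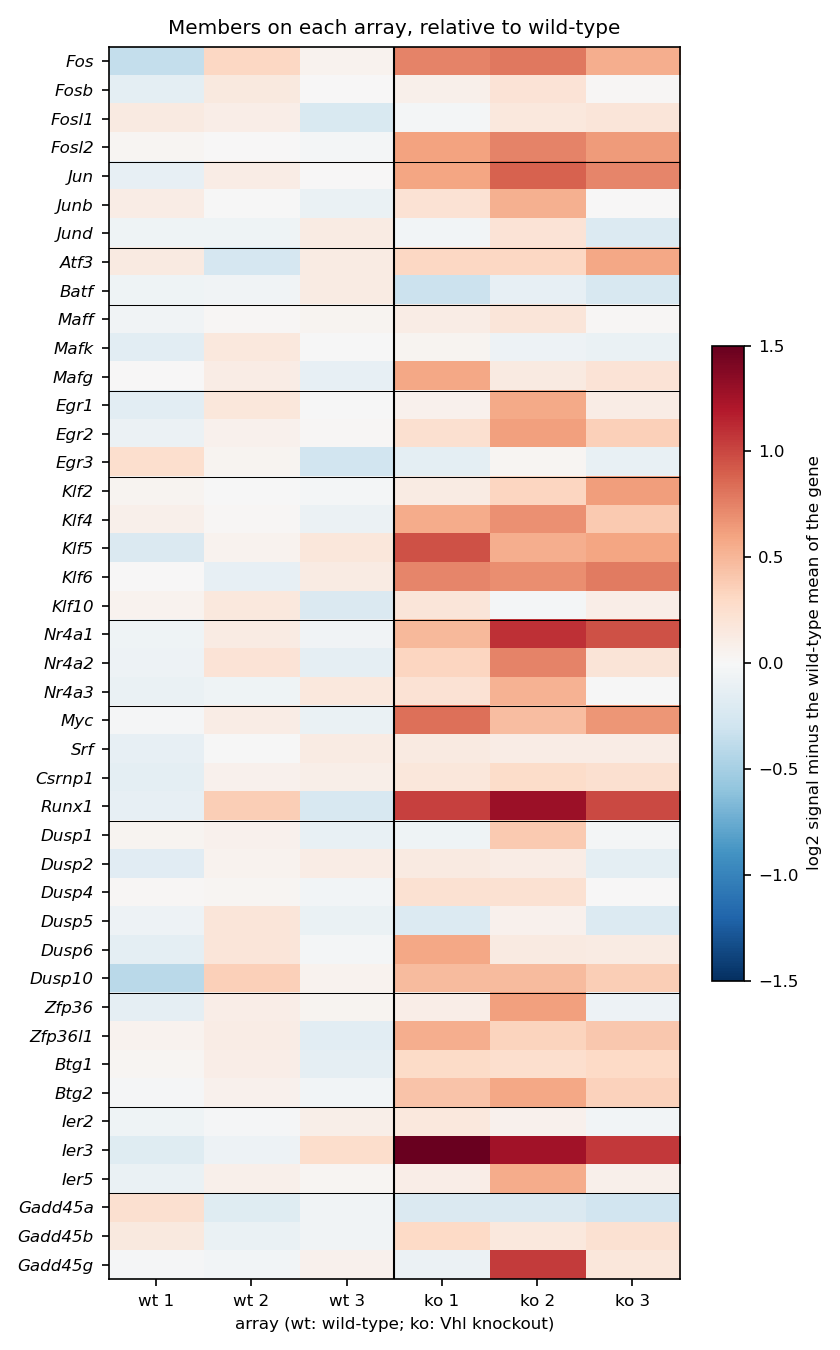
The color gives the log2 signal of each of the 43 genes on each array minus its wild-type mean, with the genes in rows by role and the 6 arrays in columns. Knockout replicate 2 is the highest of the knockout arrays for 24 genes, among them all JUN, EGR and NR4A genes, and Gadd45g is high on that array alone.

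With the mean signal of the adipocyte markers as a covariate none of the 9 genes kept an adjusted p under 0.05, although their differences stayed between 0.44 for Myc and 1.25 for Ier3. The adjusted p was then 0.0527 for Jun, 0.0539 for Fosl2, 0.0566 for Nr4a1, 0.0899 for Klf6 and 0.0974 for Ier3, and 0.121 to 0.202 for Runx1, Btg2, Klf4 and Myc. The differences of Jun, Nr4a1 and Runx1 were larger with the covariate, at 0.89, 1.14 and 1.22. Those of Fosl2, Klf4 and Btg2 were larger too, at 0.73, 0.61 and 0.54. That of Myc was smaller, at 0.44, and those of Klf6 and Ier3 were slightly smaller, at 0.73 and 1.25. Over all rows 93 were higher in that fit, against 565 without the covariate. The covariate was high on knockout replicates 1 and 3 only, at 7.11 and 6.39 against 4.66 to 5.16 on the other arrays. It thus overlaps with genotype, and the differences in that fit lean on knockout replicate 2. The fit that follows leans on the same array and is no separate check. With knockout replicate 2 as the only knockout array, which leaves out both arrays with high adipocyte markers and assumes that this single array varies like the wild-type arrays, no member passed and 8 rows did. The differences of the 9 genes were then 0.46 for Myc to 1.29 for Runx1.

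**Figure D5:**
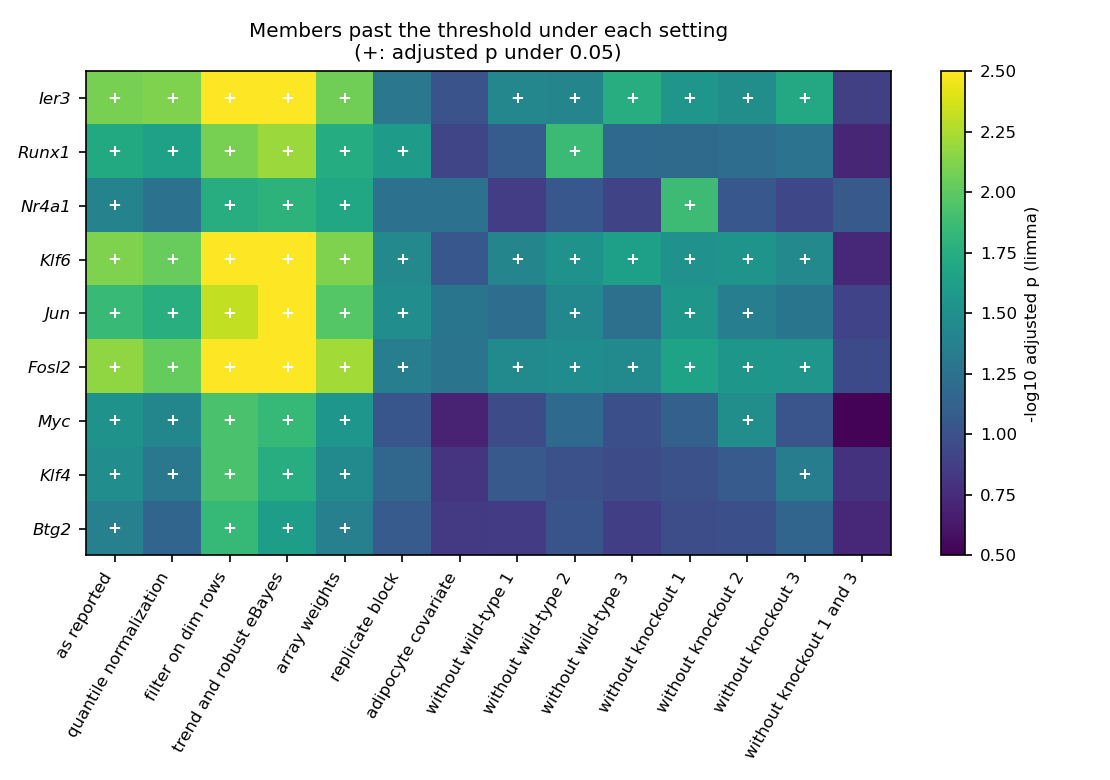
The color gives -log10 of the adjusted p from limma for the 9 genes (rows) as reported and under each alternative setting (columns), and a plus marks an adjusted p under 0.05. Fosl2, Klf6 and Ier3 pass with any 1 array left out, and none of the 9 passes with the adipocyte covariate or without knockout replicates 1 and 3.

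The promoters of the group were searched for the sites through which early genes are known to respond. Of the 43 genes 35 had an entry in the RefSeq promoter table of GRCm38.p6, 8 of the 9 that rose among them, and Dusp4, Egr1, Egr3, Fosl1, Ier2, Klf10, Klf5 and Myc had none. The 250 bases before each start were read on both strands. Sites further upstream or with other letters were not searched, so a gene without a match may still have them. The TRE letters TGACTCA stood in 1 of the 35 genes, Csrnp1, and in none of the 8 that rose, against 5.16% of the 27025 genes in the table. The CRE letters TGACGTCA stood in Btg2, Dusp1 and Maff (1.77% of all genes), the CArG box in Dusp5, Egr2, Srf and Zfp36 (1.62%), some at more than 1 place, and the EGR letters GCGTGGGCG in Maff (0.622%). A variant of the AP-1 site, TGACATCA, known from the Jun promoter, was searched after the others. It stood in Jun, Klf6 and Runx1 among the genes that rose and in Dusp10 and Maff among the rest, against 3.41% of all genes. The match in Jun was fixed in advance, as the letters come from its promoter, and cannot be weighed against that share. Matches to the TRE, the CRE and this variant cannot overlap one another, because none begins with letters that end another. A match describes the sequence and is not a binding site. The windows below, 5′ to 3′ on the strand of the gene, show the matches in 4 genes that rose and in 3 that did not pass, with the motif in capitals. The capitals in Jun, Klf6 and Runx1 mark TGACATCA, those in Btg2 and Dusp1 the CRE, and those in Srf and Zfp36 the CArG box. The Srf window also holds another CArG match, left in lower case, from 82 to 73 bases before the start.
Jun (chr4:95052225-95052302, minus strand): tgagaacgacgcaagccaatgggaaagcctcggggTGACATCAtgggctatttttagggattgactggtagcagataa
Klf6 (chr13:5861335-5861412, plus strand): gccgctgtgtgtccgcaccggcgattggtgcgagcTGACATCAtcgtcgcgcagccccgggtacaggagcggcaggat
Runx1 (chr16:92826118-92826195, minus strand): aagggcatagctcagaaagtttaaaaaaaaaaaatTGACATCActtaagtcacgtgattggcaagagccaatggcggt
Btg2 (chr1:134079279-134079356, minus strand): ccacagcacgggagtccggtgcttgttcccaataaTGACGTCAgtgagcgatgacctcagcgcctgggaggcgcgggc
Dusp1 (chr17:26508573-26508650, minus strand): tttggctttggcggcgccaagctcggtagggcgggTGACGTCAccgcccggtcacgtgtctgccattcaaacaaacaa
Srf (chr17:46556180-46556259, minus strand): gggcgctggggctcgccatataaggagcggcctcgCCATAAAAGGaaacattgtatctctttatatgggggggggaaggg
Zfp36 (chr7:28379242-28379321, minus strand): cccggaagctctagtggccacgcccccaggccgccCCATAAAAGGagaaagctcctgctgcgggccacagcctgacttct

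In Jun the capitals began 45 bases before the start, in Klf6 119, in Runx1 86 and in Btg2 166. Btg2 rose with a log2 difference of 0.45 and Dusp1, which carries the same CRE letters 143 bases before its start, had 0.10 and did not pass. None of the 4 genes with a CArG box passed, with differences from -0.12 for Dusp5 to 0.40 for Egr2, and nothing follows from this about SRF.

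Related genes outside the group were counted from lists that were also drawn up with earlier results known, and no list was tested as a whole. Of all rows 2.24% were higher and 0.524% lower, with a median difference of -0.03. At an unadjusted p under 0.05 from limma, 8.67% of all rows were higher. None of 11 further AP-1 and leucine zipper partners passed in limma (3 higher at an unadjusted p under 0.05), with the largest difference of 0.36 in Atf5 (adjusted p = 0.121). None of 7 SRF cofactors and CREB factors passed (4 higher at an unadjusted p under 0.05), with the largest difference of 0.37 in the ternary complex factor Elk3 (adjusted p = 0.129). Of 35 other early response genes 4 rose and none fell, and their median difference was 0.16. These were Ccn2, the matricellular growth factor CTGF, with 0.91 (adjusted p = 0.0184), the kinase Sgk1 with 0.69 (adjusted p = 0.0465), the GTPase Rhob with 0.65 (adjusted p = 0.0110) and Socs3, the feedback inhibitor of STAT3 signaling, with 0.61 (adjusted p = 0.00939). Of 12 genes known as AP-1 targets 4 rose and none fell, with a median difference of 0.38. Here Cd44, the hyaluronan receptor, had 1.09 (adjusted p = 0.0217), the intermediate filament gene Vim 1.05 (adjusted p = 0.00253), the protease inhibitor Timp1 0.82 (adjusted p = 0.0420) and the urokinase receptor Plaur 0.56 (adjusted p = 0.0252). Cells that these kidneys gained markers of, macrophages and fibroblasts, also express Vim, Cd44 and Plaur, and their part was not tested. Socs3 and Vim passed with any 1 array left out, and Rhob with each but wild-type replicate 1 (adjusted p = 0.0510 without it). Ccn2 did not pass without any of the wild-type arrays (adjusted p from 0.0570 to 0.0669), and Cd44 and Timp1 not without any of these or knockout replicate 3 (0.0531 to 0.0898 and 0.0979 to 0.132). Sgk1 passed without knockout replicate 1 alone (adjusted p = 0.0268) and Plaur without wild-type replicate 3 alone (adjusted p = 0.0382), with 0.0922 to 0.140 and 0.0735 to 0.0877 without the other arrays. With the adipocyte covariate Vim, Timp1 and Cd44 kept the call (adjusted p = 0.0428, 0.0351 and 0.0354) and the other 5 did not.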

How the data were processed

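Total RNA of whole kidneys was hybridized to Affymetrix Mouse Gene 2.0 ST arrays, 3 per genotype, and genotype and replicate number were taken from the sample labels. The authors deposited log2 signals made, by the submitters' processing notes, with RMA, a method that removes background, brings arrays to a shared distribution and summarizes probes, here to 1 value per Entrez Gene row. Version and annotation build: not given in the sources used here. Differences are relative to the bulk of the rows, and low rows understate changes. A second deposited table holds the same log2 values, equal in all 25206 rows within 1e-06, beside the authors' own comparison of the genotypes (a moderated statistic, its p and q), which was not used. There were 0 columns of values left unmapped. Symbols came from the platform annotation and matched a RefSeq table of GRCm38.p6 by Entrez ID in all 23185 rows with a symbol, while 2021 rows had none here.

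The 2 genotypes were tested row by row in limma 3.58.1 under R 4.3.3 (lmFit, then eBayes, with 3.28 prior degrees of freedom), as the paper names no test for the arrays, taking an adjusted p (Benjamini-Hochberg, all rows) under 0.05 as passed. No background filter was applied. Python 3.11.15 with pandas 2.3.3 and matplotlib 3.10.9 produced tables and plots. The scripts were tested on simulated data. Precision is limited by the number of arrays, which carry no depth. All genes of the FOS, JUN, ATF and BATF families, all other members past the threshold and Egr1, Dusp1, Ier2, Nr4a1 and Myc were to be given in full, the other members by their difference with the extremes of each role, and up to 5 genes past the threshold from each list of related genes, or the 1 of largest size where none passed. Members, lists, marker genes and alternatives, the adipocyte covariate included, were chosen with earlier results of these data known. Alternatives were quantile normalization, a filter on dim rows (kept if over the median in 3 or more arrays), trend and robust eBayes, weighted arrays, a replicate block, leaving out single arrays, thresholds of 0.1 and 0.01, the covariate, and knockout replicate 2 as the sole knockout array.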

Additional observations from a re-analysis of the deposited data

How the results depend on the processing

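With 1 array left out, 3 to 5 members and 223 to 361 rows were higher, 21 to 52 rows were lower and no member was lower, and the median difference of the members was 0.20 to 0.33. The filter on dim rows gave 11 higher members, 839 higher and 262 lower rows, and trend and robust eBayes 11 members, 826 higher and 268 lower rows. Both added Klf5 and Zfp36l1 and kept all 9. At an adjusted p under 0.1 there were 12 members, 947 higher and 393 lower rows, and at 0.01 there were 3 members (Fosl2, Klf6 and Ier3), 176 higher and 7 lower rows. With the adipocyte covariate 1 member, Gadd45g, passed with 1.004 (adjusted p = 0.0424), with 93 higher and 3 lower rows and a median of 0.38 for the members. That call rests on knockout replicate 2, where Gadd45g read 7.68 against 6.54 and 6.80 on knockout replicates 1 and 3. Without Vhl knockout replicates 1 and 3 there were 0 members, 8 higher rows and 0 lower rows. Quantile normalization kept 7 of the 9 members and array weights all 9.

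Over all rows, the deviations of same-numbered arrays correlated at 0.036, 0.073 and -0.100 for replicates 1, 2 and 3. Those of differently numbered arrays ran from -0.102 to 0.066. Such weak values over all rows cannot exclude that the arrays were paired, or that these genes varied together by replicate number. In a fit that blocks on replicate number 4 members (Fosl2, Jun, Klf6 and Runx1), 246 higher and 24 lower rows remained. Among the genes that rose, the block made the standard error smaller for Runx1, Nr4a1, Jun, Klf4, Klf6 and Btg2. It made the standard error larger for Ier3, Fosl2 and Myc.

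Genes near 0 changed sign. Dusp2 was -0.013 after quantile normalization. With the covariate Jund was 0.166, Klf10 -0.060 and Dusp5 0.027, and without Vhl knockout replicates 1 and 3 Jund was 0.200, Egr3 0.035, Klf10 -0.025 and Dusp5 0.063. With 1 array left out the ranges were -0.215 to 0.051 for Egr3, -0.047 to 0.125 for Dusp2, -0.125 to 0.034 for Mafk, -0.013 to 0.170 for Fosl1, -0.122 to 0.078 for Jund, -0.018 to 0.165 for Klf10 and -0.049 to 0.182 for Dusp1. None of these 8 genes passed under any of the settings run. The cause of these shifts was not tested, beyond the fewer arrays or rows in a fit.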
